A study of Homo sapiens with 9 samples.

Results

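The BCL2 family comprises the proteins that decide whether the outer mitochondrial membrane is opened during apoptosis. The 10 genes described here were BCL2, BCL2L1, MCL1, BAX, BAK1, BAD, BID, BCL2L11, PMAIP1 and BBC3. They were chosen by symbol, through a table that pairs the array's probesets with genes, and all 10 were found among 14884 genes with a named probeset, with 1 named probeset each. Transcripts were measured 48 h after transfection of ZR-75-1, an established human breast cancer line that expresses the estrogen receptor. Of 9 arrays, 3 came from cells given the lipid Lipofectamine RNAiMAX alone (mock), 3 from cells given it with 50 nM of a non-specific negative control RNA, and 3 from cells given it with 50 nM of a miR-150-5p mimic. All 9 samples were therefore exposed to the lipid, and the mock group differs from the others in carrying no RNA. The labels give triplicate transfections of 1 cell line and do not say that they were separate experiments. The p-values therefore reflect only how far these samples differ from each other, which may be technical.

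Pro-survival members (BCL2, BCL-XL from BCL2L1, and MCL1) hold the effectors BAX and BAK1 in check. Active BAX and BAK1 form pores in the mitochondrial membrane that release cytochrome c and start the caspase cascade. The BH3-only proteins sense stress or damage and either neutralise the pro-survival proteins or activate the effectors directly. In luminal breast cancer BCL2 is best known as an estrogen-responsive gene whose protein marks hormone receptor-positive tumours.

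Values are RMA log2 intensities, so that a difference of 1 is a doubling, and are compared only within a gene, because levels of different probesets are not on a common scale. The median over all probesets lay between 4.22 and 4.27 on every array. The luminal markers ESR1, GATA3, FOXA1, KRT8, KRT18, KRT19 and EPCAM (7 of 7) all lay above the median of the genes' means, 5.44. The measured basal (2 of 5 listed), leukocyte (2 of 5), fibroblast (2 of 5) and endothelial (3 of 4) markers all lay below it. The other listed markers of these cell types had no named probeset. The table has no detection call, so a low value cannot be told from background. All 10 BCL2 family genes lay above 5.44, PMAIP1 (5.60) and BBC3 (5.85) closest to it.

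BCL2 was higher in mimic-transfected cells than in cells given the negative control RNA, and it was the only one of the 10 genes to pass the test. Its level rose by 0.40 ± 0.07 on the log2 scale (n = 3 arrays in each group; errors of differences are limma's SE), or 1.32-fold with a 95% confidence interval from 1.19 to 1.47. None of the 9 other members passed against either control. Of these, BCL2L1 and the effector BAX had the narrowest intervals, while PMAIP1 had the widest. BCL2L1 and BAX also have values repeated between arrays, which limits the spread that could be measured. A pass means a two-sided limma p below 0.05 after Benjamini-Hochberg adjustment over all 14884 genes. By that rule 0.551% of all genes passed against the negative control, 0.302% against mock and 0% in the comparison of the controls. In the family this was 1 of 10, 0 of 10 and 0 of 10.

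**Figure D1:**
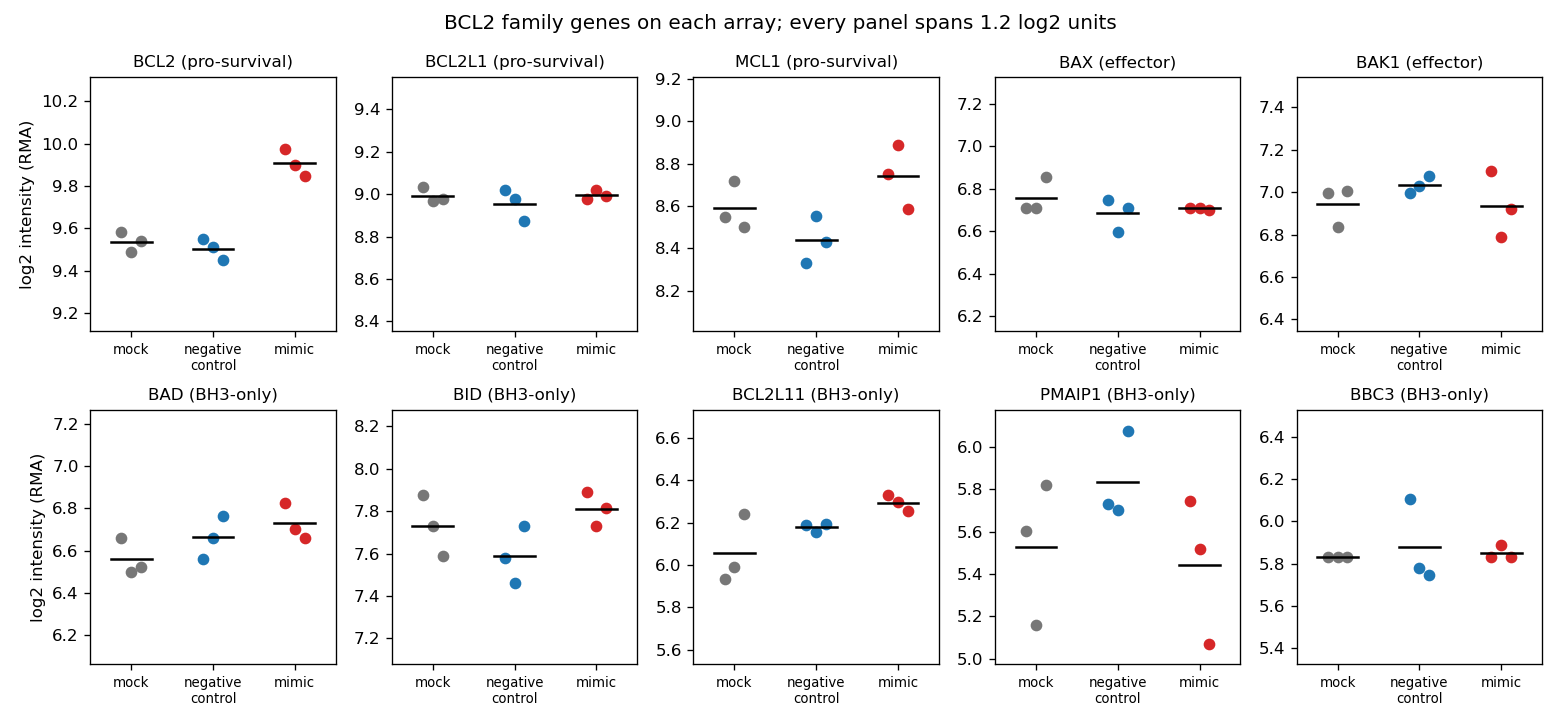
Log2 intensity (vertical axis, each panel spanning 1.2 log2 units) of the 10 BCL2 family genes on the 3 mock (grey), 3 negative control (blue) and 3 mimic arrays (red); points are arrays and bars are group means. For BCL2 the 3 mimic arrays lie from 9.85 to 9.98, above all 6 control arrays, while in most other panels the groups overlap.

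The upstream sequence of BCL2 is given because it was the one member called. It comes from the RefSeq promoter table (GRCh38.p14), which matched 9 of the 10 members, and covers the 250 bases before the annotated start, chr18:63319770-63320019, minus strand. Capitals mark CpG dinucleotides.

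BCL2: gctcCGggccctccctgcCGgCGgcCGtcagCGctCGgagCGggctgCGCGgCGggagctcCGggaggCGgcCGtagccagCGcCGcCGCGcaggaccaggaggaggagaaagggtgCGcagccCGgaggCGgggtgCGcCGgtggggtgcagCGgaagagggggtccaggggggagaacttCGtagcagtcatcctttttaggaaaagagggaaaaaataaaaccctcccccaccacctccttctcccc

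This stretch has 70.0% G and C and 24 CpGs, against medians of 58.0% and 11 over all 35116 promoters of the same length in the table. On either strand it holds none of GGTCA, the core of an estrogen response element (present in 32.6% of all promoters), the GC box GGGCGG (42.6%) or CCAAT (32.0%). That says only that these letters are not in this window. The arrays measured transcripts and not this sequence.

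Among the pro-survival genes, BCL2 had log2 intensities of 9.58, 9.49 and 9.54 on the mock arrays, 9.55, 9.51 and 9.45 on the negative control arrays and 9.98, 9.90 and 9.85 on the mimic arrays. Every mimic array was above every control array, and the lowest mimic array exceeded the highest control array, mock replicate 1. The controls overlapped each other. The adjusted p was 0.0396 against the negative control. Against mock the difference was 0.37 ± 0.07, or 1.29-fold with an interval from 1.16 to 1.44, and it did not pass (adjusted p = 0.0767). Against the mean of both controls, which pools the 6 control arrays and therefore shares arrays with the other comparisons, BCL2 rose by 0.39 ± 0.06 (adjusted p = 0.0189), where 1.1% of all genes passed. The control RNA itself left BCL2 within -0.18 to 0.12 of mock (95% interval around -0.03).

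The call of BCL2 against the negative control did not hold in most ways of fitting. Over 18 alternative fits the difference from the negative control lay between 0.37 and 0.43, and that from mock between 0.34 and 0.40. Many of these fits could not move it, so its narrow range is no check. The dim-gene filter, the intensity trend, the groups compared and the replicate block leave its group means unchanged. So do averaged and all probesets, since BCL2 has 1 named probeset. Leaving out an array of the group not compared also cannot move it. Against the negative control BCL2 passed in 5 of 9 alternatives that left out no single array. Among these, the fit on the groups compared used no mock arrays and did not pass (adjusted p = 0.0909 in limma's test). BCL2 passed in 1 of 9 fits that left out an array, the one without mock replicate 3 (adjusted p = 0.0439). Without any one of the other 8 arrays the adjusted p lay between 0.0646 (mimic replicate 3 left out) and 0.168 (negative control replicate 3 left out). Against the mean of both controls it passed in 7 of 8 alternatives and in 4 of 9 such fits, those without mimic replicate 3, mock replicate 1 or 3, or negative control replicate 1. Without the other 5 arrays it did not, with the highest value (0.0720) when mimic replicate 2 was left out.

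**Figure D2:**
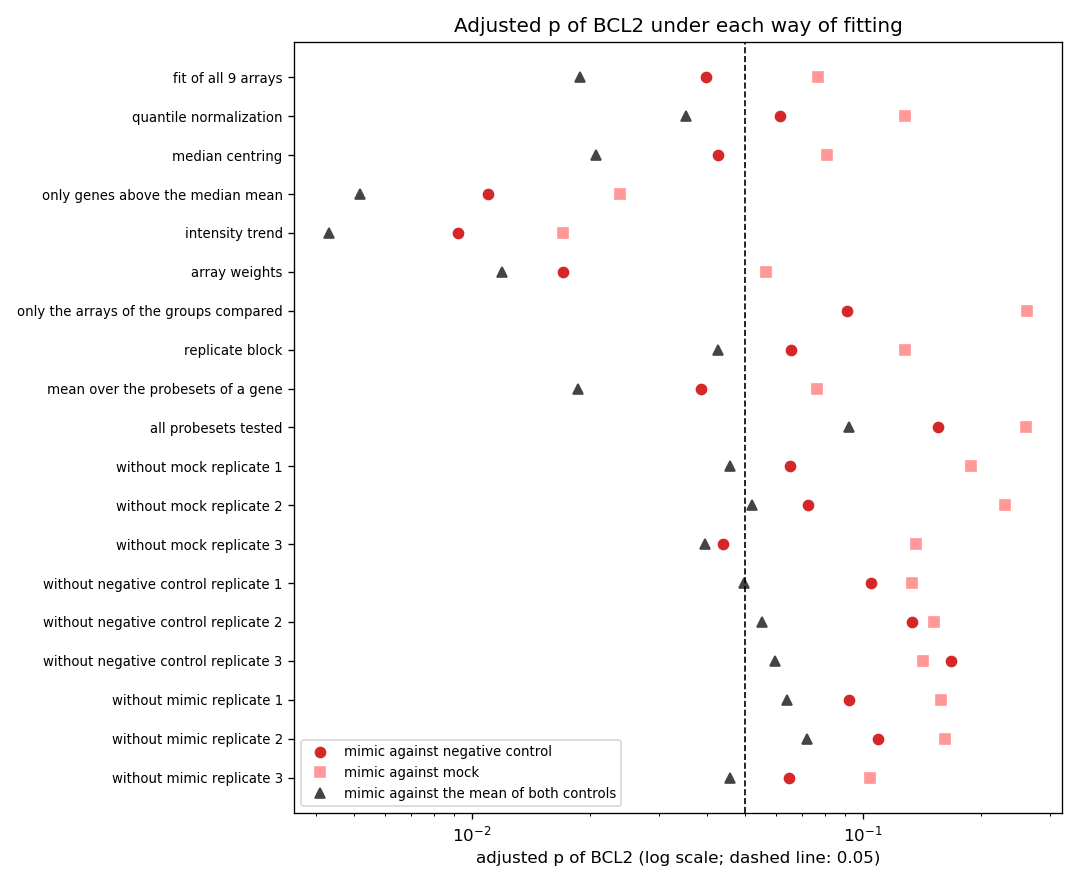
Adjusted p of BCL2 (horizontal log axis, dashed line at 0.05) under each way of fitting (rows) for mimic against negative control (circles), mock (squares) and the mean of both controls (triangles). Most circles and squares of the fits without 1 array lie right of the line, the exception being the circle without mock replicate 3 at 0.0439.

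BCL2L1, which encodes BCL-XL, had log2 intensities of 9.03, 8.97 and 8.98 in mock, 9.02, 8.98 and 8.87 in negative control and 8.98, 9.02 and 8.99 in mimic arrays. The 3 groups overlapped throughout. The mimic arrays differed from the negative control by 0.04 ± 0.07 (adjusted p = 0.845; fold interval 0.928 to 1.14) and from mock by 0.0031 ± 0.07 (adjusted p = 0.991; 0.905 to 1.11). A difference in BCL2L1 as large as that estimated for BCL2 was thus outside both intervals. However, BCL2L1 has the same value on 3 arrays, which limits the spread that could be measured.

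MCL1, a pro-survival protein that is turned over rapidly, had log2 intensities of 8.55, 8.72 and 8.50 in mock, 8.33, 8.55 and 8.43 in negative control and 8.75, 8.89 and 8.58 in mimic arrays. The mimic arrays lay above all 3 negative control arrays but overlapped mock, since mimic replicate 3 fell below mock replicate 2. The difference from the negative control was 0.30 ± 0.10, or 1.23-fold (interval 1.06 to 1.44), with an unadjusted p = 0.0135 that did not pass in limma's test (adjusted p = 0.254). Against mock it was 0.15 ± 0.10 (adjusted p = 0.631), and the negative control lay 0.15 below mock. MCL1 passed in 0 of the 18 alternatives of either comparison.

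The effector BAX had log2 intensities of 6.71, 6.71 and 6.86 in mock, 6.75, 6.60 and 6.71 in negative control and 6.71, 6.71 and 6.70 in mimic arrays. The groups overlapped, and mock replicate 3 was the highest array. The mimic arrays differed from the negative control by 0.02 ± 0.07 (adjusted p = 0.922; fold interval 0.909 to 1.14) and from mock by -0.05 ± 0.07 (adjusted p = 0.822; 0.863 to 1.08).

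BAK1, the other effector, had log2 intensities of 7.00, 6.83 and 7.00 in mock, 6.99, 7.03 and 7.07 in negative control and 7.10, 6.79 and 6.92 in mimic arrays. The mimic group held both the highest and the lowest of the 9 values, so its spread covered that of the controls. Its difference from the negative control was -0.10 ± 0.09 (adjusted p = 0.701) and from mock -0.01 ± 0.09 (adjusted p = 0.980).

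Because BCL2 protein restrains BAX, the log2 difference between the 2 transcripts was also followed within each array, set to 0 at the mean of the 6 control arrays. It lay at 0.47, 0.39 and 0.35 on the mimic arrays and between -0.12 and 0.12 on the control arrays. The groups did not overlap. BAX itself stayed within the range of its controls, so this restates the BCL2 values and is not a separate result. The same difference between BCL2 and BCL2L11 was 0.24, 0.20 and 0.19 on the mimic arrays and reached 0.25 on mock replicate 1, so those groups overlapped. For MCL1 and PMAIP1 it was 0.17, 0.54 and 0.68 on the mimic arrays and ranged from -0.48 to 0.73 on the controls. These differences are descriptions and were not tested.

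Of the 5 BH3-only genes, BCL2L11, which encodes BIM, an activator that binds all pro-survival members, was the one whose mimic arrays stood above all controls. Its log2 intensities were 5.93, 5.99 and 6.24 in mock, 6.19, 6.15 and 6.20 in negative control and 6.33, 6.30 and 6.25 in mimic arrays. The lowest mimic array, 6.25, was close to mock replicate 3 at 6.24. The difference was 0.11 ± 0.09 from the negative control (adjusted p = 0.625) and 0.24 ± 0.09 from mock (adjusted p = 0.367), so it did not pass against either. Over the fits that left out an array the difference from mock was 0.18 to 0.33, largest without mock replicate 3 (adjusted p = 0.137).

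BID, which is cut by caspase-8 and so links death receptors to mitochondria, had log2 intensities of 7.88, 7.73 and 7.59 in mock, 7.58, 7.46 and 7.73 in negative control and 7.89, 7.73 and 7.82 in mimic arrays. Mock overlapped both other groups. The mimic arrays met the negative control only at a shared value, 7.73 (mimic replicate 2 and negative control replicate 3), a tie that counted as overlap. The difference from the negative control was 0.22 ± 0.10 (unadjusted p = 0.0479, adjusted p = 0.394 in limma's test) and from mock 0.08 ± 0.10 (adjusted p = 0.801).

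BAD, whose protein is held inactive by phosphorylation through survival kinases, had log2 intensities of 6.66, 6.50 and 6.52 in mock, 6.56, 6.66 and 6.77 in negative control and 6.83, 6.70 and 6.66 in mimic arrays. The mimic group overlapped the negative control. It met mock only at a shared value, 6.66 (mimic replicate 3 and mock replicate 1), and such a tie counted as overlap. The mimic group differed from the negative control by 0.07 ± 0.08 (adjusted p = 0.787) and from mock by 0.17 ± 0.08 (adjusted p = 0.515).

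PMAIP1, which encodes NOXA, the p53-inducible partner of MCL1, was the most variable member. Its log2 intensities were 5.60, 5.16 and 5.82 in mock, 5.73, 5.70 and 6.08 in negative control and 5.74, 5.52 and 5.07 in mimic arrays. They spanned 1.01 over the 9 arrays, with the lowest value on mimic replicate 3 and the highest on negative control replicate 3. The difference from the negative control was -0.39 ± 0.20, close in size to that of BCL2 but with a fold interval from 0.555 to 1.05 (adjusted p = 0.470). Against mock it was -0.08 ± 0.20 (adjusted p = 0.907). Against the negative control the value was -0.20 without mimic replicate 3, and against mock it turned to 0.10 without that array and to 0.06 without mock replicate 3.

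BBC3, which encodes PUMA, a p53 target that binds all pro-survival members, had 5.83 on all 3 mock arrays, 6.10, 5.78 and 5.74 in negative control and 5.83, 5.89 and 5.83 in mimic arrays. Mimic and mock arrays met only at the shared value of 5.83, a tie that counted as overlap. Both groups overlapped the negative control, whose replicate 1 was the highest array. The mimic arrays differed from the negative control by -0.03 ± 0.09 (adjusted p = 0.934) and from mock by 0.02 ± 0.09 (adjusted p = 0.955). Without negative control replicate 1 the first of these was 0.09.

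**Figure D3:**
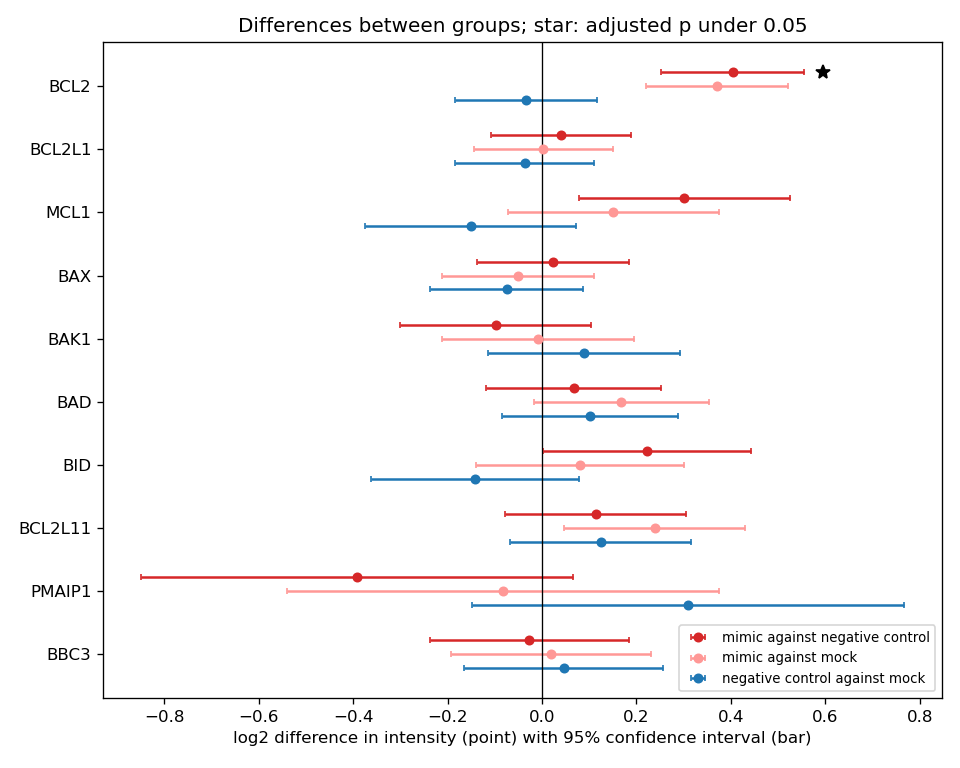
Log2 difference (points) with 95% confidence interval (bars) of each BCL2 family gene for mimic against negative control (red), mimic against mock (pink) and negative control against mock (blue); a star marks an adjusted p below 0.05. BCL2 carries the only star, at 0.40, and PMAIP1 has the widest intervals.

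Across the family, 7 of 10 members had a positive difference from the negative control, where 53.4% of all genes did, and 7 of 10 had one from mock (53.9%). For negative control against mock it was 5 of 10 (52.8%). The median difference of the members was 0.05 in both comparisons of the mimic, against 0.01 over all genes. An unadjusted p below 0.05 was found for 3 members against the negative control (BCL2, MCL1 and BID), where 12.6% of all genes had one, and for 2 against mock (BCL2 and BCL2L11; 10.7%). Groups did not overlap for 3 members against the negative control (BCL2, MCL1 and BCL2L11, all higher), which held for 16.4% of all genes in either direction and 8.42% upward. Against mock this was so for 2 members (BCL2 and BCL2L11; 12.7% and 7.21%), and the mimic arrays stood above all 6 controls for the same 2 (7.68% and 4.22%). For negative control against mock the groups of all 10 members overlapped (8.1% of all genes did not), and PMAIP1 had the largest difference (0.31 ± 0.20). In that comparison limma called 0 genes in all and 622 (4.18%) had an unadjusted p below 0.05, with 0 of the 10 members among them. The comparisons with the negative control and with mock share the 3 mimic arrays, so their likeness is not independent.

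Repeated values limit the spread that could be measured for some members. The table holds the same value to 5 decimals on 5 of 9 arrays for BBC3, on 4 for BAX and on 3 each for BCL2L1, BAD and BID. In BBC3 this covers the whole mock group, whose SD is therefore 0. A repeated value also occurs in 57.1% of all genes. BCL2, MCL1, BAK1, BCL2L11 and PMAIP1 have 9 different values.

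Genes that act around the family were described by lists. Of 9 measured transcription factors with known action on BCL2 family genes, ESR1, the estrogen receptor alpha gene, passed against both controls and 8 did not. ESR1 was 8.52, 8.55 and 8.63 in mock, 8.50, 8.52 and 8.64 in negative control and 9.04, 9.02 and 8.98 in mimic arrays. Like BCL2, its mimic arrays stood above all 6 controls. It rose by 0.46 ± 0.07 against the negative control (adjusted p = 0.0295) and by 0.45 ± 0.07 against mock (adjusted p = 0.0406). These calls, from the fit of all 9 arrays, did not hold in every alternative. Over all probesets 0 genes passed upward against the negative control. Against mock, 0 passed upward in the fit on the groups compared or without any single mimic array. The same held without mock replicate 1, negative control replicate 1 or negative control replicate 3. Whether the changes of ESR1 and BCL2 are linked was not tested.

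None of the other lists had a member that passed against either control. Of 11 further BCL2 family members measured, the lowest p against the negative control was that of BMF, a BH3-only gene (-0.23 ± 0.09, adjusted p = 0.360), which differed by -0.00096 ± 0.09 from mock. Of 6 inhibitors of apoptosis and their antagonists it was HTRA2, a mitochondrial protease released in apoptosis (0.40 ± 0.11, adjusted p = 0.180; 0.33 against mock). Of 7 outer membrane partners it was MTCH2, the mitochondrial receptor of BID, at -0.54 ± 0.16 (adjusted p = 0.216) and -0.42 ± 0.16 against mock (adjusted p = 0.407). The MTCH2 estimate was larger than that of BCL2 but had a wider error.

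Among kinases and 14-3-3 proteins acting on BAD and BIM, 5 of 16 were measured and PIM1, a kinase that phosphorylates BAD, had the lowest p (-0.18 ± 0.08, adjusted p = 0.384). The 3 measured genes of protein turnover were led by BTRC, a ubiquitin ligase subunit (0.15 ± 0.09, adjusted p = 0.554), and the 3 of the death receptor pathway by FADD, the adaptor that recruits caspase-8 (0.13 ± 0.08, adjusted p = 0.549). Of 9 listed caspases and apoptosome genes only APAF1, the scaffold that activates caspase-9, had a named probeset (-0.07 ± 0.08, adjusted p = 0.759).

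The genes whose 9 values were most like those of BCL2 were found by the root mean square difference after each gene was centred on its own mean, over 7432 genes brighter than the median. They were TFAP2B, an AP-2 transcription factor (0.0497 on the log2 scale), MORC2, a chromatin ATPase (0.0535), SIAH2, a ubiquitin ligase (0.0545), GREB1, a cofactor of the estrogen receptor (0.0555), and RB1CC1, a scaffold of autophagy (0.0578). All 5 had higher values on each mimic array than on each control array, which follows from choosing them for likeness to BCL2. None of the 5 passed by itself against the negative control, with adjusted p from 0.0520 (SIAH2) to 0.0640 (RB1CC1) in limma's test. Within the family, MCL1 (0.146) and BCL2L11 (0.148) were nearest to BCL2 by this measure and PMAIP1 (0.399) farthest, and 7.91% of those 7432 genes were nearer than MCL1.

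**Figure D4:**
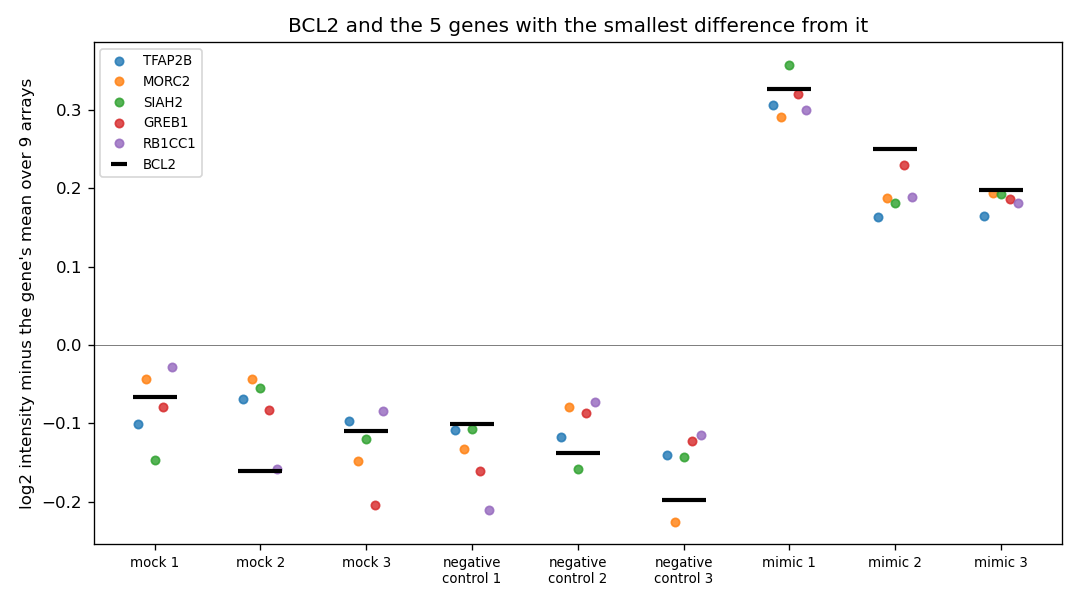
Log2 intensity minus the gene's own mean over 9 arrays (vertical axis) for BCL2 (black bars) and the 5 genes most like it (points) on each array. All 6 genes are above 0 on the 3 mimic arrays and below 0 on the 6 control arrays, which follows from choosing the 5 genes for likeness to BCL2.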

How the data were processed

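The authors summarised the arrays with RMA, as the submitters' processing notes name it, and the deposited table holds the log2 values for 53617 probesets on 9 arrays, 3 per group. For RMA's version, the genome build and the probe annotation the sources used here give nothing. Of the probesets 16098 had 1 gene symbol in the platform table, 0 had several and 37519 were unnamed. The probeset with the highest mean was used per gene. No dim genes were removed. R 4.3.3 with limma 3.58.1 (lmFit, eBayes) fitted 1 mean per group to all 9 arrays, with 6 residual degrees of freedom. P-values are two-sided. No exact permutation test was used, since with 3 against 3 its smallest p is 0.1. The fit was tested on simulated data with 200 changed genes.

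The 10 members were all named. From each list the genes that passed, or the one with the lowest p, are named, and the 5 genes most like BCL2. The members, lists and rules were chosen with earlier results of these data known. The motifs were chosen after the values were seen. The number of arrays limits the precision. Alternatives were 2 other normalizations, a filter on dim genes, an intensity trend, array weights, fits on the groups compared, a replicate block, averaged probesets, all probesets, and leaving out each array.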

Additional observations from a re-analysis of the deposited data

How the results depend on the processing

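BCL2 kept its positive sign against both controls in all 18 alternatives of each comparison, though many of these could not move the estimate. Its call against the negative control was lost with quantile normalization, in the fit on the arrays of the groups compared, with the replicate block and over all probesets. There 0 family members passed. Over all probesets 0 also passed against the mean of both controls. Against mock, 1 member (BCL2) passed with the filter on dim genes and with the intensity trend. Without 1 array, 0 to 1 members passed against the negative control and against the mean of both controls, and 0 against mock.

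Counts of genes passing against the negative control, 82 in the fit reported, were 263 with the filter on dim genes, 181 with the intensity trend, 268 with array weights, 8 on the groups compared and 6 over all probesets. Against mock, 45 in the fit reported, they were 102 with the filter, 78 with the trend, 1 on the groups compared and 3 over all probesets; of the 45, 25 were higher and 20 lower, and of 39 with quantile normalization 17 and 22. Against the mean of both controls, 163 in the fit reported, they were 348, 245 and 22 with the filter, the trend and all probesets. Without 1 array the counts ranged from 7 to 121, from 1 to 10 and from 31 to 102. All probesets means 53617 tests and the filter 7442. The causes of the changed counts were not tested.

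Replicate numbers are shared by the groups, but same-numbered arrays deviated from their group means with correlations from -0.06 to 0.13 only, so they were not treated as pairs. With the replicate block 16, 3 and 95 genes passed, and BCL2 had an adjusted p of 0.0656 against the negative control, 0.128 against mock and 0.0426 against the mean of both controls.

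Signs turned only where the estimate was smaller than its SE. The largest such estimates were those of PMAIP1 (-0.08 ± 0.20) and BID (0.08 ± 0.10), each against mock. With quantile normalization BCL2L1 became -0.037 against mock and -0.0084 against the mean of both controls, and BBC3 0.012 against that mean (0.0036 with median centring). With array weights BBC3 became 0.030 against the negative control and 0.033 against the mean of both controls, BID -0.0013 against mock and BAX 0.0043 against the mean. Without 1 array, the values against the negative control ranged from -0.0019 to 0.072 for BCL2L1, -0.021 to 0.054 for BAX and -0.093 to 0.087 for BBC3. Against mock they ranged from -0.0086 to 0.023 for BCL2L1, -0.090 to 0.065 for BAK1 and -0.27 to 0.10 for PMAIP1. Against the mean of both controls they were -0.036 to 0.011 for BAX, -0.13 to 0.020 for BAK1 and -0.037 to 0.053 for BBC3. For negative control against mock they were -0.069 to 0.0050 for BCL2L1 and -0.068 to 0.11 for BBC3.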
